A study of Homo sapiens with 4 samples.

Results

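Epithelial cells are held to the tissue below them by hemidesmosomes, plaques that join the keratin filaments inside the cell to the basement membrane outside it. The material studied here is the transcript level of 9 genes of that link in HaCaT cells, a human keratinocyte line that became immortal in culture. They were chosen by name from the gene list of each library, and all 9 of 9 were found among the 29209 genes listed and all 9 passed the filter on low counts that left 15113 genes for testing. A pair of stable lines was compared, with 2 libraries each: TCN1_OE, which carries a lentiviral TCN1 overexpression construct, and NC, the negative control line, both grown in serum-containing medium and harvested for polyA RNA without further treatment. TCN1 encodes a secreted vitamin B12-binding protein, and the comparison asks which genes differ in expression when it is overexpressed. The promoter of the construct, and whether each line is 1 clone or a pool of transduced cells, are not stated in the labels. They also do not say that the libraries of 1 line come from different cultures, and the spread behind each p-value here may thus be technical.

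In the basement membrane, laminin trimers made of an alpha, a beta and a gamma chain form the sheet that cells bind. LAMA3 and LAMB3 encode the alpha and beta chains of the main laminin of epidermal hemidesmosomes, and LAMA5 encodes the alpha chain of another laminin that epithelia make. COL7A1 encodes type VII collagen, which forms the anchoring fibrils below the sheet. In the cell membrane, COL17A1 encodes the transmembrane collagen of the hemidesmosome and CD151 a tetraspanin that binds laminin-binding integrins. Inside the cell, DST (dystonin) and PLEC (plectin) encode plakins that tie the plaque to keratin filaments, and FERMT1 encodes kindlin-1, an integrin activator of epithelial cells. Inherited loss of LAMA3, LAMB3, COL17A1, COL7A1, DST, PLEC or FERMT1 causes blistering of the skin.

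Promoter sequences are shown for laminin chains because LAMA3 and LAMB3 products meet in 1 trimer while their transcript levels differ several-fold, and because the LAMA5 window shows the GC-rich end of the set. RefSeq windows on GRCh38.p14 matched 6 of the 9 genes with 10 windows, and none was matched for PLEC, CD151 and FERMT1. Each sequence holds the 250 bases before an annotated start, on the gene's strand. In the first 2, capitals mark TGANTCA, the letters that AP-1 dimers bind, and in the LAMA5 window they mark GGGCGG or its reverse complement, the GC box.
LAMA3, chr18:23872770-23873019, plus strand: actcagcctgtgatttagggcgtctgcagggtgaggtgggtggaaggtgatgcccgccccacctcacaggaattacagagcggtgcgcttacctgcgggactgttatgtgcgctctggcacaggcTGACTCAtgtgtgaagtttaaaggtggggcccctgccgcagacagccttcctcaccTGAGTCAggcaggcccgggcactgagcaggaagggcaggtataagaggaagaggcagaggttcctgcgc
LAMB3, chr1:209651375-209651624, minus strand: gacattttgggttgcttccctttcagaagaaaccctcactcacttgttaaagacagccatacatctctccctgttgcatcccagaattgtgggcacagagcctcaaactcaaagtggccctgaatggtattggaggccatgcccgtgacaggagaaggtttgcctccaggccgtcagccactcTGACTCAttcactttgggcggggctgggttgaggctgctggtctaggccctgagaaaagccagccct
LAMA5, chr20:62367313-62367562, minus strand: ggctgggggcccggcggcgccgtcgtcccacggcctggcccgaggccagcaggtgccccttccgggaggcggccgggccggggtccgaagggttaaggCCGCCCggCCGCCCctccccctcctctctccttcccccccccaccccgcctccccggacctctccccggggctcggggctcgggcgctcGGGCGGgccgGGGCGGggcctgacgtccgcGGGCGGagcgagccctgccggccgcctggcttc
The LAMA3 window held 2 matches to TGANTCA, whose first bases lie at -125 and -69 counted back from the start. The LAMB3 window, which is the most internal of 3 for that gene, held 1 match at -67. The other 8 windows of the set, with those of LAMB3 not printed here among them, held none. Searched on both strands, TGANTCA occurred in 6.57% of all 35116 windows and GGGCGG in 42.6%. The LAMA5 window held 5 GC boxes between -152 and -33, at a GC content of 82.8%, against 60.4% in the LAMA3 window. GC boxes were not particular to it, as 7 of the 10 windows held them. The printed LAMA3 and LAMB3 windows held 1 each, at -197 and -52, not set in capitals. A DST window held 4, also at a GC content of 82.8%. In the printed windows no match to one motif overlapped a match to the other. The matches are letters only, and no binding was measured.

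The labels were checked first. TCN1 had 68.3 and 56.6 FPKM (fragments per kilobase, for which the authors divided each count by the gene's length and its library's total) in TCN1_OE and 1.67 and 0.978 FPKM in NC, a log2 fold change of 5.48 ± 0.20 (SE, edgeR adjusted p 2.4e-06). Library totals were 16586500 and 14756073 counts in TCN1_OE and 19973550 and 11593377 counts in NC. The 9 genes together took 0.577% and 0.668% of the counts in TCN1_OE and 0.521% and 0.607% in NC. The 9 keratinocyte markers, KRT5, KRT14 and TP63 among them, summed to 7514 and 8354 FPKM in TCN1_OE and 6998 and 7653 FPKM in NC. Markers of fibroblasts (5 of 9 listed), melanocytes (6 of 7), endothelium (4 of 6) and leukocytes (7 of 7) summed to between 1.04 and 3.18 FPKM in TCN1_OE and between 0.941 and 2.75 FPKM in NC, so the defining markers of those cells stood near 0. A difference in a bulk sample cannot tell fewer cells of a type from less RNA per cell.

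Each of the 9 genes was expressed well above the counting floor in every library, with 1420 counts at least, and none passed the test between the lines in which the line was the only term. With edgeR's quasi-likelihood test on counts and Benjamini-Hochberg adjustment over all genes, 0 of 9 were called higher and 0 lower at an adjusted p under 0.05, where 0.496% of all genes tested were called (0.285% higher and 0.212% lower). At an unadjusted p under 0.05 there was 1, DST, where 12.8% of all genes were. DESeq2 called 0 of the 9, with 1.5% of all genes called, and limma on log2(FPKM + 0.5) called 0 of the 9, with 0.00872% called. The log2 fold changes, TCN1_OE over NC, ran from -0.18 for FERMT1 to 0.30 for LAMA5, with 6 positive and 3 negative, where 50.3% of all genes were positive. Their median was 0.17, beside 0.00 (0.0016) over all 15113 genes. In 5 of 9 genes the FPKM values of the lines did not overlap, 3 of them higher and 2 lower in TCN1_OE, where 42.7% of all genes did not overlap, 21.7% higher and 21% lower. The calls depended on the terms of the fit. With a term for the replicate number edgeR called 6 of the 9 higher and 2 lower, where 19% of all genes were called. The labels do not say that the replicate numbers pair the libraries.

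**Figure D1:**
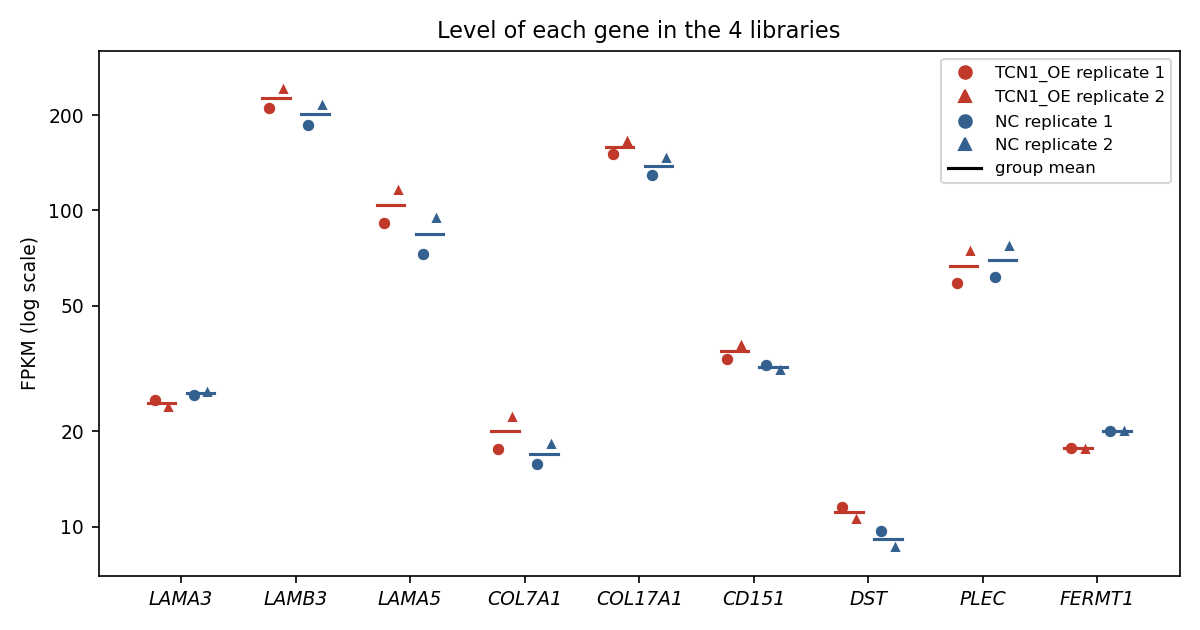
FPKM on a log axis for the 9 genes in the 4 libraries, TCN1_OE in red and NC in blue, circles for replicate 1 and triangles for replicate 2, with the group mean as a line. LAMB3 was highest, up to 243.7 FPKM, and DST lowest, down to 8.67 FPKM, and for LAMA5 and PLEC the triangles lie above the circles in both lines.

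The order of levels was the same at its top and bottom in all 4 libraries, from LAMB3 at the top through COL17A1 to DST at the bottom. LAMB3 averaged 227.7 ± 22.6 FPKM in TCN1_OE and 201.7 ± 22.0 FPKM in NC (SD, n = 2 each). COL17A1 averaged 159.1 ± 11.1 FPKM in TCN1_OE and 138.4 ± 12.5 FPKM in NC. LAMA5 came next at 103.8 ± 17.9 FPKM in TCN1_OE and 84.1 ± 16.2 FPKM in NC, and in NC its range overlapped that of PLEC. COL7A1 and FERMT1, neighbours near the bottom, overlapped in TCN1_OE and stood apart in NC, where FERMT1 was above COL7A1. These are levels per kilobase of the deposited gene length, which for 7 of the genes lies within a few percent of the bases under any exon in GENCODE 29, so a gene with long rare forms is set lower than its main transcript would be. For FERMT1 the deposited length is 10236 bp and the GENCODE exons cover 5359 bp, and for DST they are 48142 and 42341 bp. On the GENCODE length, an alternative added after the data were seen, FERMT1 would stand at 33.9 and 34.0 FPKM in TCN1_OE and 38.4 and 38.5 FPKM in NC, above COL7A1 and LAMA3 and beside CD151, so its place in the order rests on the length used. The bottom place of DST may rest on length too, since GENCODE lists coding DST transcripts of 8999 and 9180 bp.

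LAMA3, the alpha chain of the hemidesmosomal laminin, had 25.1 and 24.0 FPKM in TCN1_OE, against 26.1 and 26.8 FPKM in NC. Both TCN1_OE libraries lay a little below both NC libraries. This is a log2 fold change of -0.11 ± 0.08 (SE), with a 95% interval from -0.29 to 0.07 and an edgeR adjusted p of 0.623. Gene spans here are those of GENCODE 29 (GRCh38). In it LAMA3 (ENSG00000053747) spans 23689443 to 23956222 of chromosome 18 on the plus strand, and no other gene covers its exons.

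LAMB3, its partner beta chain, had 211.6 and 243.7 FPKM in TCN1_OE, against 186.2 and 217.3 FPKM in NC. The lines overlapped, since NC replicate 2 was above TCN1_OE replicate 1. On the log2 scale the fold change was 0.17 ± 0.11 (SE), with a 95% interval from -0.07 to 0.41 and an edgeR adjusted p of 0.559. Leaving out 1 library gave 0.05 without TCN1_OE replicate 2 and 0.06 without NC replicate 1, but 0.28 without TCN1_OE replicate 1 and 0.29 without NC replicate 2. LAMB3 (ENSG00000196878) spans 209614870 to 209652466 of chromosome 1.

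LAMA3 and LAMB3 were thus not at equal transcript levels in either line. The ratio of LAMB3 to LAMA3, in FPKM, was 8.42 and 10.2 in TCN1_OE and 7.13 and 8.10 in NC, so the TCN1_OE libraries had the higher values. An exact permutation test (two-sided) cannot go below 0.333 with 2 and 2 libraries, and no other test of the ratio was made. Part of its size rests on length, as the deposited length of LAMA3 is 14488 bp. A short GENCODE transcript, which codes for the shorter alpha chain found in hemidesmosomes, has 5671 bp. Had all LAMA3 counts come from that transcript, LAMA3 would stand at 64.2 and 61.3 FPKM in TCN1_OE and 66.7 and 68.6 FPKM in NC, and LAMB3 would be 3.29 and 3.97 times LAMA3 in TCN1_OE and 2.79 and 3.17 times in NC. This length was chosen after the data were seen.

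LAMA5, the alpha chain of another epithelial laminin, had the largest log2 fold change of the 9 genes. It had 91.2 and 116.5 FPKM in TCN1_OE, against 72.7 and 95.5 FPKM in NC. NC replicate 2 lay above TCN1_OE replicate 1, so the lines overlapped, and in each line replicate 2 was the higher. Its log2 fold change was 0.30 ± 0.15 (SE), with a 95% interval from -0.03 to 0.63 and an edgeR adjusted p of 0.436. The value moved with the library left out, to 0.52 without NC replicate 2 and 0.47 without TCN1_OE replicate 1. Without NC replicate 1 it was 0.11, and without TCN1_OE replicate 2 it was 0.10. Each omission leaves the lines with unequal replicate numbers, and replicate 2 was above replicate 1 by 0.35 in TCN1_OE and 0.39 in NC. Between libraries of the same number, TCN1_OE minus NC was 0.33 for number 1 and 0.29 for number 2. These differences are on log2(FPKM + 0.5). In a fit with a library left out 1 line holds a single library, which is assumed to vary like those of the other line. Such values, here and for the other genes, also hold any difference between replicate numbers and are not independent calls. Over the alternatives without a term for the replicate number its adjusted p ran from 0.013 to 0.903. LAMA5 (ENSG00000130702) spans 62307955 to 62367312 of chromosome 20, and 2.54% of its exonic bases are under another gene, mostly ADRM1, which the unstranded kit cannot tell from it.

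The beta and gamma chains that join LAMA5 ranged from -0.27 to 0.51 in log2 fold change, and differences between genes were not tested. LAMB2 had 35.4 and 42.9 FPKM in TCN1_OE, against 26.4 and 28.6 FPKM in NC, with no overlap. Its log2 fold change of 0.51 ± 0.11 (SE) had the smallest edgeR adjusted p of all the related genes, 0.0878, and did not pass. DESeq2 called it, with an adjusted p of 0.0100, as did edgeR with upper-quartile factors or with no filter on low counts. Its log2 fold change ran from 0.35 without TCN1_OE replicate 2 to 0.65 without TCN1_OE replicate 1. It passed in that second fit and without NC replicate 2 (0.57), where 1 line has a single library, but not in the other 2 such fits. Over the alternatives without a term for the replicate number its adjusted p ran from 3.7e-04 to 0.510. LAMB1, the other beta chain, had 3.23 and 3.18 FPKM in TCN1_OE and 3.83 and 3.88 FPKM in NC, a log2 fold change of -0.27 ± 0.10 (edgeR adjusted p 0.297). LAMC1, the common gamma chain, named after its values were seen, had 74.6 and 75.4 FPKM in TCN1_OE and 74.1 and 74.7 FPKM in NC, a log2 fold change of 0.01 ± 0.08 whose sign turned to -0.01 without a filter on low counts.

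COL7A1, the anchoring fibril collagen, had 17.6 and 22.4 FPKM in TCN1_OE, against 15.7 and 18.3 FPKM in NC. The lines overlapped, with replicate 2 the higher in both. A log2 fold change of 0.23 ± 0.13 (SE) resulted, with a 95% interval from -0.06 to 0.52 and an edgeR adjusted p of 0.50. It was 0.40 without TCN1_OE replicate 1 and 0.03 without TCN1_OE replicate 2. COL7A1 (ENSG00000114270) spans 48564073 to 48595267 of chromosome 3.

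COL17A1, the transmembrane collagen, had 151.2 and 166.9 FPKM in TCN1_OE, against 129.5 and 147.2 FPKM in NC. Both TCN1_OE libraries lay above both NC libraries, with TCN1_OE replicate 1 and NC replicate 2 the closest. The log2 fold change was 0.20 ± 0.10 (SE), with a 95% interval from -0.02 to 0.42 and an edgeR adjusted p of 0.441. It was 0.10 without NC replicate 1, 0.11 without TCN1_OE replicate 2, 0.27 without TCN1_OE replicate 1 and 0.30 without NC replicate 2. COL17A1 (ENSG00000065618) spans 104031286 to 104085957 of chromosome 10.

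CD151, the tetraspanin, had 34.0 and 37.8 FPKM in TCN1_OE, against 32.3 and 31.5 FPKM in NC. The lines did not overlap, although TCN1_OE replicate 1 stood close to NC replicate 1. Its log2 fold change was 0.17 ± 0.10 (SE), with a 95% interval from -0.05 to 0.38 and an edgeR adjusted p of 0.518. The value without TCN1_OE replicate 2 was 0.07, and without TCN1_OE replicate 1 it was 0.25. Of its exonic bases 7.57% are under another gene, mostly POLR2L. CD151 (ENSG00000177697) spans 832843 to 839831 of chromosome 11.

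DST, the plakin that binds COL17A1 and keratin in the plaque, had the smallest p of the 9 genes. It had 11.6 and 10.7 FPKM in TCN1_OE, against 9.66 and 8.67 FPKM in NC. The lines did not overlap, and replicate 1 was the higher in both, the reverse of LAMA5. The log2 fold change was 0.27 ± 0.09 (SE), with a 95% interval from 0.08 to 0.47, an unadjusted edgeR p of 0.0118 and an adjusted p of 0.229. It stayed between 0.20 and 0.34 under all 14 alternatives. DST (ENSG00000151914) spans 56457987 to 56954628 of chromosome 6 and gives rise to neuronal, muscle and epithelial forms of very different length, so its deposited length of 48142 bp sets its FPKM low.

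PLEC, the other plakin of the plaque, had 58.8 and 74.9 FPKM in TCN1_OE, against 61.7 and 77.9 FPKM in NC. The lines overlapped almost fully, and replicate 2 was the higher in both. The log2 fold change was -0.07 ± 0.14 (SE), with a 95% interval from -0.38 to 0.25 and an edgeR adjusted p of 0.890. Its sign turned with the libraries used: leaving out NC replicate 2 gave 0.12, leaving out TCN1_OE replicate 1 gave 0.11, and the values were -0.23 without NC replicate 1 and -0.27 without TCN1_OE replicate 2. PLEC (ENSG00000178209) spans 143915147 to 143976734 of chromosome 8.

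FERMT1, the epithelial kindlin, had 17.7 and 17.8 FPKM in TCN1_OE, against 20.1 and 20.2 FPKM in NC. The 2 libraries of each line lay closer together than for any of the other 8 genes, with an SD of 0.0435 FPKM in TCN1_OE and 0.0545 FPKM in NC. The log2 fold change was -0.18 ± 0.08 (SE), with a 95% interval from -0.37 to 0.00 (0.0030) and an edgeR adjusted p of 0.399. The standard error is set by a spread shared across genes, so it is wider than these libraries alone. FERMT1 (ENSG00000101311) spans 6074845 to 6123544 of chromosome 20.

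**Figure D2:**
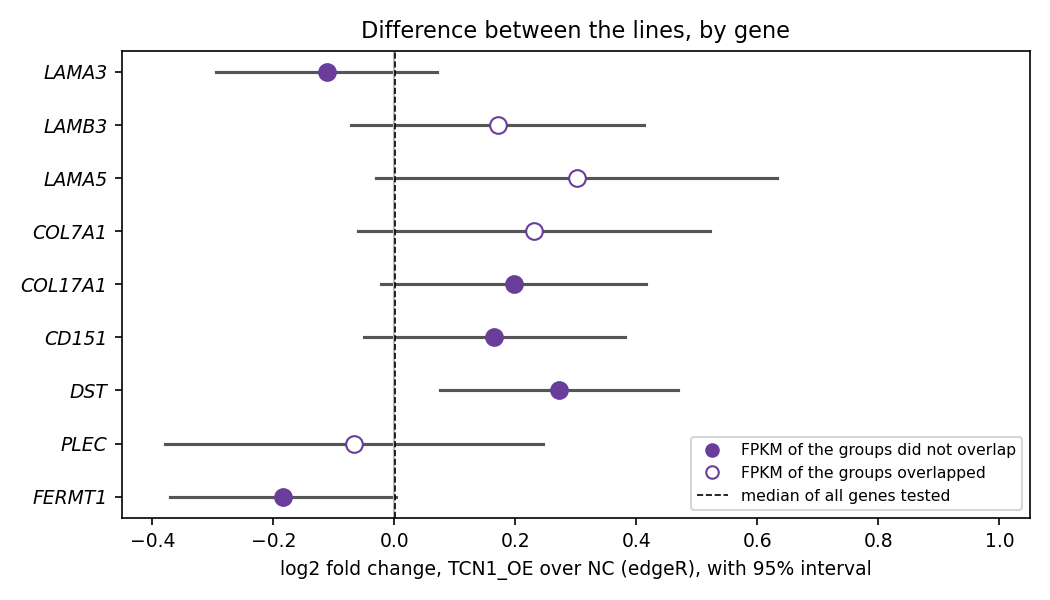
Log2 fold change of each gene, TCN1_OE over NC, with its 95% interval from edgeR, filled where the FPKM values of the lines did not overlap. The interval excludes 0 for DST, from 0.08 to 0.47, and includes it for the other 8 genes.

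The intervals bound what could be seen with 2 libraries per line. On a linear scale they reached 1.55-fold for LAMA5 at the upper end and 0.769-fold for PLEC at the lower end, so a 2-fold difference lay outside the interval of each gene, under the spread edgeR fitted. The genes with the longest transcripts, DST among them, can be set beside long genes at large. The 2217 tested genes of at least 10000 bp had a median log2 fold change of -0.00 (-0.0048), and the 2367 under 2000 bp one of 0.06.

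The largest differences among the 4 libraries ran along the replicate number for several of these genes. On the scale of log2(FPKM + 0.5), replicate 2 was above replicate 1 in 7 of 9 genes in TCN1_OE and in 7 of 9 in NC, where 46.2% and 47.3% of the 11279 tested genes averaging 1 FPKM or more were. For LAMA5 the difference, replicate 2 minus replicate 1, was 0.35 in TCN1_OE and 0.39 in NC, and for PLEC it was 0.35 in TCN1_OE and 0.33 in NC. For DST it was -0.11 in TCN1_OE and -0.15 in NC, and for FERMT1 0.00 (0.0049) in TCN1_OE and 0.01 in NC. For LAMA5 and PLEC the replicates of a line thus differed by more than 0.30, the largest log2 fold change between the lines among the 9 genes.

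This difference followed the GC content of the transcripts. The longest GENCODE transcript has a GC content of 67.0% for PLEC, 66.4% for LAMA5 and 64.8% for COL7A1, and of 41.3% for DST, 48.5% for FERMT1 and 50.7% for LAMA3. Over the 9 genes, Pearson's r between GC content and the replicate difference was 0.95 in TCN1_OE and 0.80 in NC, a description over genes that share the same 4 libraries. CD151 departed most in NC, at 62.6% GC with a difference of -0.04, against 0.15 in TCN1_OE. The same held for genes at large: at a GC content of at least 60% (1512 genes) the median replicate difference was 0.25 in TCN1_OE and 0.24 in NC, and under 45% (4290 genes) it was -0.13 in TCN1_OE and -0.11 in NC. The labels do not say what the replicate number marks. Between the lines, the median log2 fold change was 0.05 for the genes of at least 60% GC and -0.04 for those under 45%, and the part of GC content in the values of LAMA5 and COL7A1 was not tested.

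**Figure D3:**
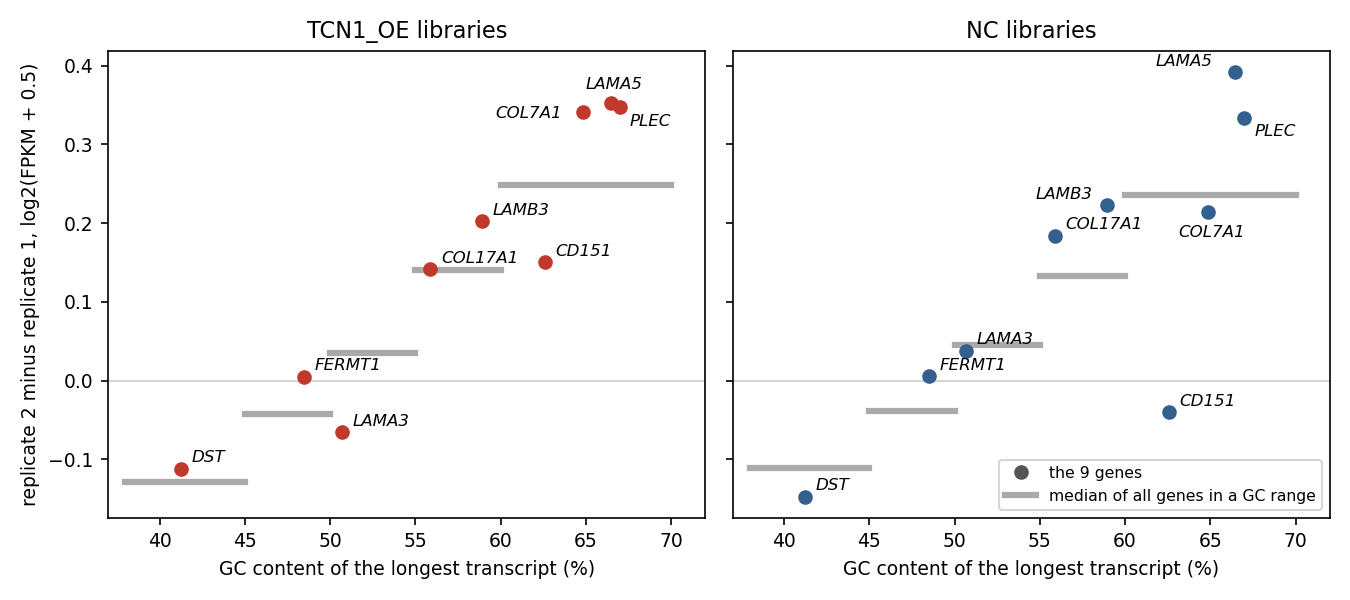
Difference between replicate 2 and replicate 1 on the log2(FPKM + 0.5) scale against the GC content of the longest transcript, TCN1_OE at left and NC at right, with the medians of all genes by GC range as grey bars. DST lies lowest in both panels, at -0.11 and -0.15, and LAMA5 highest, at 0.35 and 0.39.

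The lines were also compared within each replicate number. TCN1_OE minus NC, on the same scale, was 0.33 between the libraries numbered 1 and 0.29 between those numbered 2 for LAMA5, 0.22 and 0.18 for COL17A1, 0.18 and 0.16 for LAMB3, and 0.25 and 0.28 for DST. For PLEC it was -0.07 and -0.06, and for FERMT1 -0.18 and -0.18. For CD151 it was 0.07 and 0.26, for COL7A1 0.16 and 0.28, and for LAMA3 -0.05 and -0.16. The sign was the same in both for all 9 genes, and the share of all genes for which this held was not counted. Where the FPKM values of the lines did not overlap, as in 5 of the 9 and 42.7% of all genes, an equal sign follows from that alone.

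Genes of the same structures were read from the same fit, in 9 lists of 92 genes, of which 90 were among the listed genes and 79 were tested. With edgeR 0 of 79 were called higher and 0 lower, beside 0.496% of all genes, while 16 had an unadjusted p under 0.05, where 12.8% of all genes did, 10 of them higher and 6 lower in TCN1_OE. DESeq2 called 1, LAMB2, and limma 0. The median log2 fold change over the 79 was 0.04.

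The listed integrins and keratins, and the ladinin gene LAD1 in the same list, were close between the lines. Of 7 tested, 5 were positive; the median was 0.11 and the range from -0.11 to 0.13, and 0 had an unadjusted p under 0.05. ITGA6, the alpha subunit of the hemidesmosomal integrin, had 231.8 and 215.8 FPKM in TCN1_OE and 209.5 and 198.6 FPKM in NC, a log2 fold change of 0.13 ± 0.08 (SE). Its partner ITGB4, named after its values were seen, had 110.9 and 144.4 FPKM in TCN1_OE and 102.3 and 130.0 FPKM in NC. Replicate 2 was the higher in both lines. The log2 fold change of ITGB4 was 0.13 ± 0.15. It turned to -0.04 without NC replicate 1 and -0.09 without TCN1_OE replicate 2, omissions that leave unequal replicate numbers. Between libraries of the same number, TCN1_OE minus NC was 0.12 for number 1 and 0.15 for number 2, on log2(FPKM + 0.5). The basal keratin KRT5 stood at 0.13 ± 0.09 and the integrin ITGB1 at -0.11 ± 0.09. Of the other 5 plakins 0 had an unadjusted p under 0.05, and their median was 0.00 (0.00054). The desmosomal plakin DSP stood at 0.10 ± 0.08, EVPL at 0.09 ± 0.15 and PPL at -0.06 ± 0.11.

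The collagen IV chains, which form the second network of the basement membrane, lay on the negative side in 3 of 4 tested, with a median of -0.22. COL4A1 had 2.47 and 2.71 FPKM in TCN1_OE, against 3.32 and 3.74 FPKM in NC, a log2 fold change of -0.45 ± 0.12 (SE, edgeR adjusted p 0.161), which was called with no filter on low counts, at -0.47. COL4A6 stood at -0.25 ± 0.17 and COL4A2 at -0.18 ± 0.15, and COL4A2 turned to 0.02 without TCN1_OE replicate 1. Of 12 tested linker and proteoglycan genes 10 were positive, with a median of 0.13. The nidogens, which bridge laminin and collagen IV, stood on opposite sides: NID1 had 9.28 and 10.4 FPKM in TCN1_OE against 7.04 and 8.33 FPKM in NC, and NID2 had 0.562 and 0.512 FPKM in TCN1_OE against 0.870 and 1.36 FPKM in NC. Their log2 fold changes were 0.35 ± 0.13 and -1.04 ± 0.28 (SE), with edgeR adjusted p of 0.279 and 0.153. NID2 was called with no filter on low counts, at -1.05. It passed at -1.35 without NC replicate 1, where NC is a single library, but stood at -0.69 without NC replicate 2 (edgeR adjusted p 0.458). FREM2, a matrix protein of the epidermal basement membrane, stood at 0.78 ± 0.27 on a mean of 0.615 FPKM in TCN1_OE and 0.363 FPKM in NC, and with 1 library left out it ran from 0.45 without NC replicate 1, and 0.54 without TCN1_OE replicate 2, to 0.98 without TCN1_OE replicate 1 and 1.13 without NC replicate 2. It passed in those last 2 fits, each with a single library in 1 line, and not in the others.

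**Figure D4:**
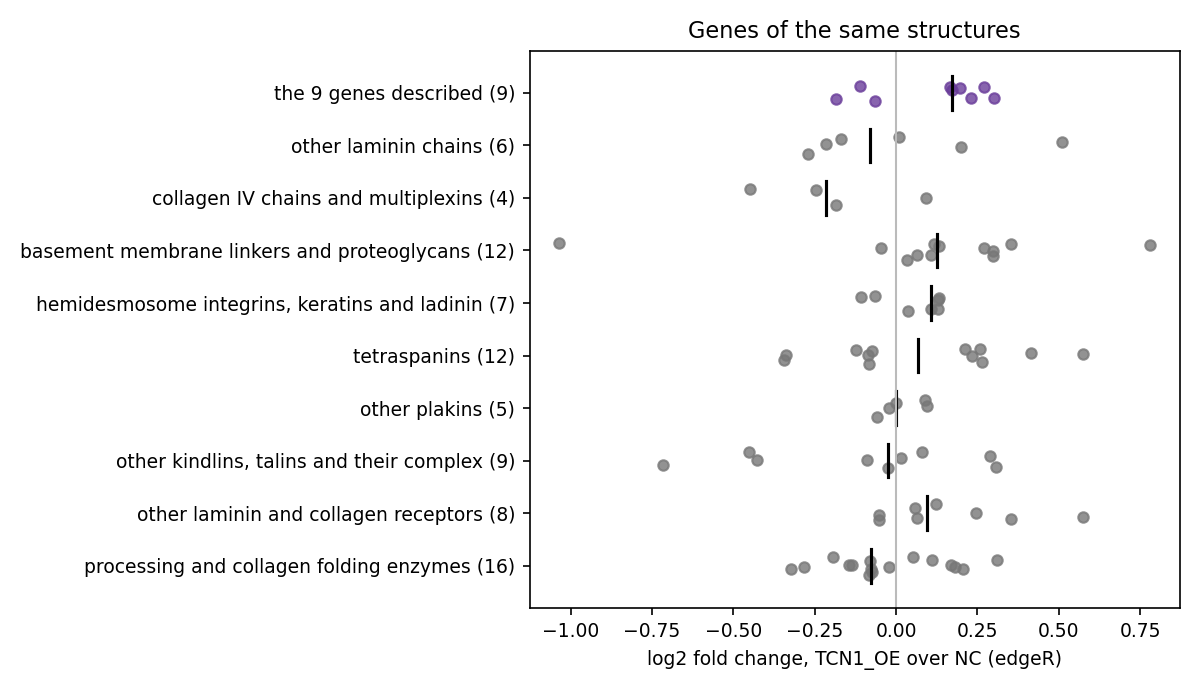
Log2 fold change, TCN1_OE over NC, of the tested genes of each list (number tested in brackets), with the list's median as a black line. The 9 genes described lie between -0.18 and 0.30, and the collagen IV list has the lowest median, -0.22.

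Of the 12 tetraspanins besides CD151, 5 had an unadjusted p under 0.05, beside 12.8% of all genes, all 5 of them higher in TCN1_OE, and 0 passed edgeR over all genes. The median of the 12 was 0.07, with 6 positive and 6 negative. CD9 had 104.6 and 104.6 FPKM in TCN1_OE, against 86.8 and 90.8 FPKM in NC, a log2 fold change of 0.23 ± 0.08 (SE). CD82 stood at 0.41 ± 0.12 and TSPAN1 at 0.26 ± 0.10, and CD82 was called with no filter on low counts, at 0.40. It passed at 0.56 without TCN1_OE replicate 1, where TCN1_OE is a single library, but stood at 0.24 without TCN1_OE replicate 2 (edgeR adjusted p 0.658).

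The genes of these lists nearest to DST in profile were the epithelial integrin ITGB6, the protease gene PLAU and ITGA6. Nearness was the Euclidean distance between profiles of log2(FPKM + 0.5), each centred over the 4 libraries, and the distances among the 79 tested genes were 0.104 for ITGB6, 0.132 for PLAU and 0.141 for ITGA6. Over 4 libraries such a distance only describes these values.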

How the data were processed

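Per the labels' protocols, RNA was taken with Trizol and sequenced from NEBNext Ultra RNA libraries, an unstranded kit. HISAT2 and HTSeq 0.13.5 on GRCh38 are named in the submitters' processing notes. Which annotation release, strand option and treatment of multi-mapping reads were used is not given in the sources used here. Per the file headers, the deposited files hold a raw count and an FPKM value per library for 29209 genes. The authors' FPKM follows from the deposited count: count divided by FPKM and by the library total gave a whole number of base pairs in 100% of values above 0, within 1e-04 bp. Library totals ran from 11593377 to 19973550 counts, and the counting floor covers counting error only. The 95% intervals also cover the spread between libraries that edgeR fitted.

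Groups and replicate numbers came from the sample titles. Counts were tested with edgeR 4.0.16 in R 4.3.3 (quasi-likelihood, TMM, robust, group as the only term, all 4 libraries). Filtering with filterByExpr at a minimum count of 10 left 15113 genes, with Benjamini-Hochberg adjustment and a threshold of 0.05. The standard error is the log2 fold change divided by the square root of F, and the 95% interval uses the t distribution with edgeR's degrees of freedom. The steps were tested on simulated data. Alternatives were DESeq2 1.42.0, other factors and filters, limma 3.58.1 on log2 FPKM with pseudocounts of 0.1, 0.5 and 1, a term for the replicate number, and leaving out each library. GC content of transcripts, gene spans and exon overlap came from GENCODE 29, and the promoter windows from RefSeq. GC content was found for 98.1% of the 11279 tested genes averaging 1 FPKM or more. The genes and lists were chosen with earlier results of these data known. Named besides the 9 genes were TCN1, in each list the 3 genes with the smallest p (1 of them is not reported here), the 3 genes nearest in profile to the member with the smallest p, and those said to be named after their values were seen.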

Additional observations from a re-analysis of the deposited data

How the results depend on the processing

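None of the 9 genes was called under DESeq2, library totals only, upper-quartile factors, no filter, a mean of at least 1 FPKM or limma with any of its settings, and over these 9 alternatives all 81 values kept their sign. Leaving out 1 library, which leaves 1 line with a single library assumed to vary like the other line's, gave 36 values, of which 2 were calls, both of LAMA5 (0 to 1 gene higher, 0 lower), and 2 were changes of sign, both of PLEC, whose values ran from -0.27 to 0.12. Without such an omission the named list genes changed sign once, LAMC1 at -0.0090 with no filter. With a library left out, COL4A2 ran from -0.43 to 0.022, EVPL from -0.13 to 0.27 and PPL from -0.20 to 0.065. ITGB4 ran from -0.086 to 0.32 and LAMC1 from -0.015 to 0.024. Each omission leaves the lines with unequal replicate numbers. Between libraries of the same number, TCN1_OE minus NC on log2(FPKM + 0.5) kept its sign for PLEC and for each of these list genes. The replicate numbers are shared between the lines, and the deviations of same-numbered libraries correlated at 0.26, but with 2 pairs this does not show that the numbers pair the samples. With the replicate block, edgeR called 1216 genes higher and 1655 lower, 19% of all tested, against 43 and 32 without it. It called 6 of the 9 genes higher (LAMA5, LAMB3, COL17A1, COL7A1, DST and CD151) and 2 lower (LAMA3 and FERMT1), and 22 list genes higher and 11 lower. Over all genes the count higher and lower was 111 and 115 with DESeq2, 69 and 63 with library totals only, 78 and 53 with upper-quartile factors, 200 and 275 with no filter, and 31 and 14 at a mean of at least 1 FPKM. Limma called 1 and 0 with a pseudocount of 0.5 or 1, and 0 and 0 with 0.1 or with no filter. Leaving out 1 library gave 104 to 188 higher and 106 to 142 lower. Among the list genes DESeq2 called 1 higher, upper-quartile factors 1 higher, no filter 2 higher (LAMB2 and CD82) and 2 lower (COL4A1 and NID2), and leaving out 1 library 0 to 3 higher and 0 to 1 lower. With the length of the short LAMA3 transcript, an alternative added after the data were seen, the mean ratio of LAMB3 to LAMA3 was 3.63 in TCN1_OE and 2.98 in NC, against 9.29 and 7.61 with the deposited length. With the GENCODE exonic length, also added then, FERMT1 averaged 33.9 FPKM in TCN1_OE and 38.4 FPKM in NC, and DST 12.6 and 10.4 FPKM. The cause of these differences was not tested.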

Other observations

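Receptors and enzymes around the basement membrane were measured in the same libraries. Of 8 tested matrix receptor genes, integrin subunits and syndecans among them, 6 were positive with a median log2 fold change of 0.09. Over all genes 0 passed edgeR (1 had an unadjusted p under 0.05, where 12.8% of all genes did). ITGB6, the beta subunit of an epithelial integrin that is raised in wounds, had 17.96 and 15.64 FPKM in TCN1_OE, against 13.6 and 12.6 FPKM in NC, a log2 fold change of 0.35 ± 0.10 (SE, edgeR adjusted p 0.182). The heparan sulfate proteoglycans SDC1 and SDC4 stood at 0.24 ± 0.11 and 0.12 ± 0.08. Of 9 tested genes of the kindlin and talin complex 2 had an unadjusted p under 0.05, beside the same 12.8%, and 0 passed edgeR over all genes. FERMT2, the broadly expressed kindlin, had 1.46 and 1.26 FPKM in TCN1_OE, against 2.06 and 1.63 FPKM in NC, a log2 fold change of -0.45 ± 0.18, on the same side as FERMT1. TLN2 stood at -0.72 ± 0.23 and FERMT3 at 0.29 ± 0.31, both under 1 FPKM.

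Among 16 tested enzymes that process or fold matrix proteins, 6 were positive and 10 negative with a median of -0.08, and 0 passed edgeR over all genes (2 had an unadjusted p under 0.05, beside 12.8% of all genes). PLAU, the urokinase gene, had 36.3 and 36.9 FPKM in TCN1_OE, against 29.8 and 29.1 FPKM in NC, a log2 fold change of 0.31 ± 0.09 (SE, edgeR adjusted p 0.196). COLGALT1, which adds galactose to collagen, had 17.5 and 20.0 FPKM in TCN1_OE, against 23.0 and 23.8 FPKM in NC, at -0.32 ± 0.10. ADAM9, one of the proteases reported to shed COL17A1, stood at -0.20 ± 0.10.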
